A study of Mus musculus with 16 samples.

Results

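The HOX genes of the Hoxa, Hoxb, Hoxc and Hoxd clusters were followed in mouse embryo heads at 3 embryonic stages. All genes were taken whose symbol in the array's annotation consists of Hox, a cluster letter and a paralog number, which gave 33 of the 18193 genes measured. A gene's values come from its probe set (a group of short probes for 1 transcript) with the highest mean log2 intensity over the 16 arrays, since 11 of the 33 genes had more than 1 of the 48 probe sets naming a single HOX gene. The Hoxa cluster (chromosome 6) and the Hoxb cluster (chromosome 11) had 9 members each, the Hoxc cluster (chromosome 15) had 7 and the Hoxd cluster (chromosome 2) had 8. Of the 39 HOX genes in the RefSeq table of build GRCm38.p6, 6 are not analysed singly here, among them Hoxb8 and Hoxd4, which were named only by probe sets shared with Hoxb7 and Hoxd3.

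Total RNA from the heads was hybridised to 1-colour arrays, 6 at E9.5, 4 at E11.5 and 6 at E13.5, and the submitters call the arrays of a stage biological replicates. E9.5 and E11.5 RNA was labelled with a GeneChip IVT kit and E13.5 RNA with the MessageAmp II-Biotin Enhanced kit, so that stage and labelling kit cannot be told apart in either comparison with E13.5. The labels give no strain, sex or treatment, and how far the dissected tissue reached into the neck is not stated there. Titles of single samples speak of heads, that of the series of the brain.

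HOX genes encode homeodomain transcription factors that give cells their position along the body axis. In each cluster the genes with low paralog numbers are switched on early and reach furthest forward, into the hindbrain and the pharyngeal arches, while those with high numbers act in the trunk, limbs and tail. In the head they are known from the hindbrain segments, the neural crest of the arches behind the first and the motor neurons of cranial nerves, whereas forebrain, midbrain and the first arch are free of them.

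A value is given as an intensity on the deposited linear scale, and a difference as log2 of the later over the earlier stage with its standard error (SE) from limma. Genes with a Benjamini-Hochberg adjusted p under 0.05 over all 18193 genes were called, and a called difference of 1 or more on the log2 scale was counted as 2-fold. The lower quartile of all probe sets was 12 on every array, and members whose stage means were all under 12 were marked as near background. There were 7 such members, Hoxa4, Hoxa10, Hoxb7, Hoxc8, Hoxc10, Hoxd10 and Hoxd11, with array values between 6 and 13. Next to the limit, the highest stage mean was 11.3 for Hoxa4 (E13.5) and 11.25 for Hoxb7 (E11.5) inside it and 13.5 for Hoxb13 (E11.5) outside it. The remaining 26 members reached 12 at a stage or more.

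By the chosen probe sets, the largest rises at E13.5 were in members of paralog numbers 1 to 8, Hoxb5, Hoxc4, Hoxd8, Hoxb6, Hoxd1, Hoxd3 and Hoxb3, each 2-fold or more against both earlier stages. None of the 14 members of paralog numbers 9 to 13, 4 of them near background at all stages, differed 2-fold in any of the 3 comparisons. The shares of all genes called 2-fold in either direction of a comparison ranged between 3.8% and 9.93%, and 0 of 14 is near them. The planned paralog ranges were 1 to 5 and 6 to 13, and a cut after number 8 was not planned. It lies just after Hoxd8, the highest-numbered member that rose 2-fold, so it only describes these values. Against E11.5, 12 of the 33 members were higher at E13.5 and 7 lower, where 27.9% and 27% of all genes were called higher and lower. Of these, 9 were higher 2-fold and 1 was lower 2-fold, where 5.78% and 3.8% of all genes were. The 1 lower 2-fold was Hoxa5 by its brighter probe set, while its other probe set was higher by 3.84 in the same comparison. Against E9.5, 15 members were higher at E13.5 and 3 lower (32.7% and 29.1% of all genes), and 7 were higher 2-fold and 0 lower 2-fold (9.93% and 7.08% of all genes). The count of 0 stayed at 0 in each alternative that was tried, and the 3 lower members were Hoxa13, Hoxb1 and Hoxd12. In bulk tissue, fewer cells of a type and less RNA per cell cannot be told apart.

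**Figure D1:**
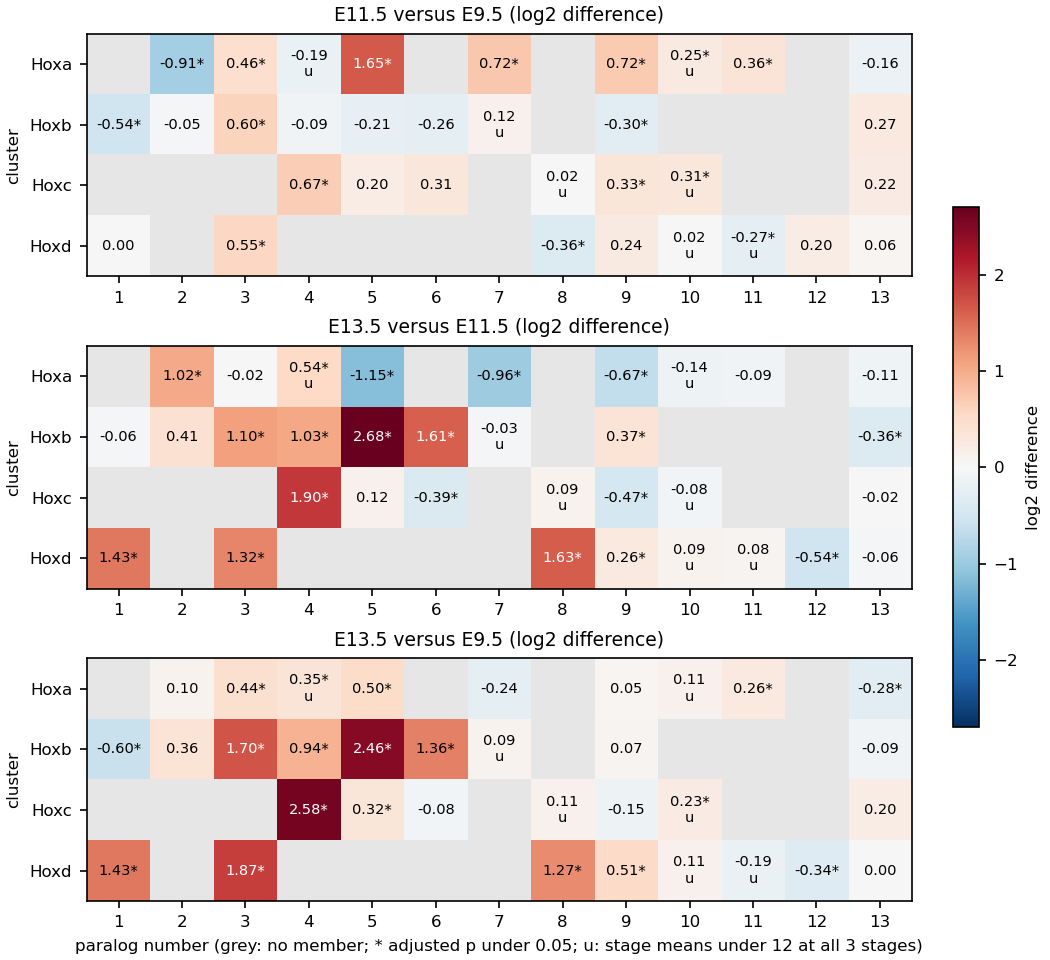
Log2 differences between stages of the 33 HOX genes, with the 4 clusters down the page and paralog numbers across, for E11.5 versus E9.5 (top), E13.5 versus E11.5 (middle) and E13.5 versus E9.5 (bottom). Red is higher and blue lower at the later stage, a star marks a limma adjusted p under 0.05, a u marks members under 12 at all stages, and the dark red squares in the middle and bottom grids lie at paralog numbers 1 to 8.

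By paralog number, 8 of the 13 members of numbers 1 to 5 were higher at E13.5 than at E11.5, with a median log2 difference of 1.02. The 1 counted as lower was Hoxa5, whose other probe set was higher. Of the 20 members of numbers 6 to 13, 4 were higher and 6 lower, with a median of -0.07. The median over all genes was 7.7e-05, with 27.9% of all genes called higher and 27% lower. Of the 9 members higher 2-fold, 7 had numbers 1 to 5 and 2 had numbers 6 to 8, where 5.78% of all genes were higher 2-fold. Against E9.5, 10 of the 13 members of numbers 1 to 5 were higher at E13.5 and 1 was lower (median 0.50), and 5 of the 20 members of numbers 6 to 13 were higher and 2 lower (median 0.08), beside a median of 0.0068 over all genes. In that comparison 32.7% of all genes were called higher and 29.1% lower. These are counts over the list, and no test was made between the paralog ranges.

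By cluster, the Hoxb cluster had 5 members higher and 1 lower at E13.5 than at E11.5, of which 4 were higher 2-fold. The Hoxd cluster had 4 higher and 1 lower, with 3 higher 2-fold. The Hoxc cluster had 1 higher, Hoxc4, and 2 lower, Hoxc6 and Hoxc9. The Hoxa cluster had 2 higher, Hoxa2 and Hoxa4, and 3 lower, Hoxa7, Hoxa9 and, by its brighter probe set, Hoxa5. Over all genes, 27.9% were higher and 27% lower, and 5.78% were higher 2-fold and 3.8% lower 2-fold. The counts higher and lower in the Hoxa and Hoxc clusters lie near those shares.

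Promoter sequence is shown for the 3 Hoxd genes that rose together at E13.5 and for Hoxb4, whose start lies inside Hoxb3. The windows hold the 250 bases before each gene's start in RefSeq on GRCm38.p6, plus strand, at chr2:74704365-74704614 (Hoxd8), chr2:74711743-74711992 (Hoxd3), chr2:74762730-74762979 (Hoxd1) and chr11:96318017-96318266 (Hoxb4). Capitals mark AGGTCA on either strand (TGACCT), the half-site that retinoic acid receptors bind.
Hoxd8: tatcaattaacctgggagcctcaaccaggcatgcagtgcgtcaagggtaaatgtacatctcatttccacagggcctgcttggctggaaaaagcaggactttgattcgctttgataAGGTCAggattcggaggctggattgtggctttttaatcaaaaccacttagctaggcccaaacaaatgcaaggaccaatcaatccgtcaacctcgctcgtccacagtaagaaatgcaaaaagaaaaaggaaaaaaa
Hoxd3: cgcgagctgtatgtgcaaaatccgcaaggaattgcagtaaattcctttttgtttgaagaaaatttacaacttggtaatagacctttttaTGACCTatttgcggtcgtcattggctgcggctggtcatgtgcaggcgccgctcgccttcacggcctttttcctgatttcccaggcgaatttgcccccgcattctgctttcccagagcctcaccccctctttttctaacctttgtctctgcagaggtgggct
Hoxd1: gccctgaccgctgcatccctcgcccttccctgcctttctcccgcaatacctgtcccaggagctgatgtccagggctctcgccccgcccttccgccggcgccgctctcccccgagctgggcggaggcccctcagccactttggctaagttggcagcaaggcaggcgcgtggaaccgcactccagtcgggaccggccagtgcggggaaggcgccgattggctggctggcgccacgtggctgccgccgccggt
Hoxb4: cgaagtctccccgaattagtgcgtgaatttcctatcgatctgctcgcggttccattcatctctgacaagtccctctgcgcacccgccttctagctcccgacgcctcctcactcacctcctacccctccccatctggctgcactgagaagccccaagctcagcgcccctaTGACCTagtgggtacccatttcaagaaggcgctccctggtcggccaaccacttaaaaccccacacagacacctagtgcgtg
The first base of the match lay 135 bases before the start in Hoxd8, 161 in Hoxd3 and 81 in Hoxb4, and Hoxd1 had no match in its window. Such a window was at hand for 19 of the 33 members, and 5 of them held the motif, Hoxb4, Hoxc4, Hoxd3, Hoxd8 and Hoxd10, where 14% of 32851 windows of the same length did. The HOX-PBX motif TGATNNAT, on either strand, was in 3 (Hoxa2, Hoxb1 and Hoxd11), against 7.68% of all windows, and TATAAA in 2 (Hoxa10 and Hoxd13), against 12.4%. The windows shown hold neither of these, so no match overlaps another motif. The motifs were chosen after the values were seen, and a match is a description of the letters.

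Paralog number 1 was measured in Hoxb1 and Hoxd1. Hoxb1, which sets the identity of the hindbrain segment that gives rise to the facial motor neurons, ranged between 9 and 26 over the 6 E9.5 arrays with a median of 12. It was 9 on each of the 4 E11.5 arrays and between 8 and 9 at E13.5. The higher E9.5 arrays were samples 22 (26), 24 (17) and 16 (14), while samples 13, 15 and 19 lay at 10, 9 and 9, next to the later stages. It was lower at E11.5 than at E9.5 (log2 difference -0.54 ± 0.21, adjusted p = 0.0332) and lower at E13.5 than at E9.5 (-0.60 ± 0.19, adjusted p = 0.00909). Without sample 22 the difference between E11.5 and E9.5 was -0.34 and no longer called (adjusted p = 0.0556), and it also lost its call without sample 16 or 24 or any 1 of the E11.5 arrays, with an adjusted p of at most 0.0758.

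Hoxd1, which in the mouse is known from pain-sensing neurons of the sensory ganglia, had intensities between 6 and 8 at E9.5 (median 7) and of 7 on each E11.5 array. At E13.5 it lay between 18 and 20 (median 18.5). Every E13.5 array was above all arrays of both earlier stages, which were near background. It rose 2.69-fold at E13.5 against E11.5 (log2 difference 1.43 ± 0.08, adjusted p = 6.04e-12).

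Hoxa2 patterns the second pharyngeal arch and the hindbrain segment behind the first. It had intensities between 35 and 61 at E9.5 (median 46), of 28, 23, 28 and 20 at E11.5, and between 43 and 55 at E13.5 (median 50). The 4 E11.5 arrays lay under all arrays of the other stages, which overlapped each other. It was 1.88-fold lower at E11.5 than at E9.5 (log2 difference -0.91 ± 0.13, adjusted p = 5.67e-06) and 2.02-fold higher at E13.5 than at E11.5 (1.02 ± 0.13, adjusted p = 1.55e-06). Between E13.5 and E9.5 it differed by 0.10 ± 0.12 (adjusted p = 0.462).

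Hoxb2, also a gene of the hindbrain segments, averaged 55.2 at E9.5, 53 at E11.5 and 68.7 at E13.5, and was called in none of the comparisons by limma, with adjusted p of 0.854, 0.0861 and 0.0825 for E11.5 versus E9.5, E13.5 versus E11.5 and E13.5 versus E9.5. Its E9.5 arrays ranged between 32 and 75. Without E11.5 sample 51 the difference between E13.5 and E11.5 was 0.57 and called (adjusted p = 0.0226), and it was also called without E9.5 sample 19, as was that between E13.5 and E9.5 without E9.5 sample 22 or 24.

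All 3 members of paralog number 3 were higher at E11.5 and at E13.5 than at E9.5. Hoxb3 had intensities between 24 and 29 at E9.5 (median 25.5), of 26, 37, 77 and 33 at E11.5, and between 75 and 102 at E13.5 (median 84.5). E11.5 sample 51, at 77, was the single earlier array that reached the E13.5 range. Hoxb3 was 3.26-fold higher at E13.5 than at E9.5 (log2 difference 1.70 ± 0.17, adjusted p = 2.52e-08) and 2.15-fold higher than at E11.5 (1.10 ± 0.19, adjusted p = 6.08e-05). The difference between E11.5 and E9.5, 0.60 ± 0.19 (adjusted p = 0.0116), was 0.28 without sample 51 (adjusted p = 0.0513). The other probe set of Hoxb3 had stage means of 12, 27.2 and 89.2 in stage order, and it was higher at E13.5 than at E11.5 by 1.70 ± 0.14 (adjusted p = 2.71e-09).

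Hoxd3 is required for the first neck vertebra in the mouse. It had intensities between 7 and 10 at E9.5 (median 9), of 14, 11, 15 and 11 at E11.5, and between 22 and 40 at E13.5 (median 32). No array of 1 stage overlapped those of another, with E9.5 lowest, E11.5 between and E13.5 highest, and the E9.5 values were near background. It rose 2.50-fold at E13.5 against E11.5 (log2 difference 1.32 ± 0.15, adjusted p = 1.81e-07) and was 0.55 ± 0.15 higher at E11.5 than at E9.5 (adjusted p = 0.00293). Of 2 probe sets shared by Hoxd4 and Hoxd3, the brighter averaged 33.2, 43.2 and 91.7 in stage order and the other 11.5, 12 and 18. Both were higher at E13.5 than at E11.5, by 1.11 ± 0.13 and 0.59 ± 0.12 (adjusted p = 5.75e-07 and 0.000264). Which of the genes they report was not tested.

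Hoxa3, which the thymus and parathyroid glands need, averaged 29.2, 41 and 39 in stage order. It was higher at E11.5 than at E9.5 by 0.46 ± 0.16 (adjusted p = 0.0153), a call lost without E11.5 sample 51 or 52 (adjusted p = 0.0962 and 0.0635). It was higher at E13.5 than at E9.5 by 0.44 ± 0.14 (adjusted p = 0.00926), a call lost with quantile normalization (0.27, adjusted p = 0.0860), with median centring (adjusted p = 0.0587) and with the B62 or B63 arrays alone at E13.5. It differed by -0.02 ± 0.16 between E13.5 and E11.5 (adjusted p = 0.922). The second-brightest of its 4 probe sets averaged 9.67, 17 and 27.2 and was called higher between E13.5 and E11.5, by 0.84 ± 0.23 (adjusted p = 0.00477). This set's identifier ends in s_at, and whether its probes match other transcripts was not tested.

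Of paralog number 4, Hoxc4 had the largest difference between E13.5 and E9.5 among the 33 chosen probe sets, though the other probe sets of Hoxa5 and Hoxb3 differed more (3.71 and 2.88). Its intensities lay between 12 and 19 at E9.5 (median 13.5), at 26, 18, 29 and 19 at E11.5, and between 61 and 104 at E13.5 (median 87). All E13.5 arrays were above all earlier ones, and the E11.5 arrays overlapped those of E9.5 at the low end. It was 5.96-fold higher at E13.5 than at E9.5 (log2 difference 2.58 ± 0.15, adjusted p = 5.67e-12) and 3.74-fold higher than at E11.5 (1.90 ± 0.17, adjusted p = 9.22e-09). Between E11.5 and E9.5 it was higher by 0.67 ± 0.17 (adjusted p = 0.00200).

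Hoxb4 averaged 21.8 at E9.5, 20.8 at E11.5 and 41.2 at E13.5. It was higher at E13.5 than at E11.5 by 1.03 ± 0.20 (adjusted p = 0.000179) and than at E9.5 by 0.94 ± 0.18 (adjusted p = 0.000108), although E11.5 sample 33 reached 32 and the lowest E13.5 array was 30. Its other probe set averaged 11.2, 13 and 13.7 in stage order, and its difference between E13.5 and E11.5 was 0.07 ± 0.09 (adjusted p = 0.577). In the RefSeq annotation Hoxb4 (chr11:96318267-96321638) lies inside the span of Hoxb3 (chr11:96307101-96347930), so a probe can fall in transcripts of both. The span of Hoxa3 (chr6:52169059-52213067) likewise holds Hoxa4 and Hoxa5. Hoxa4, near background at all stages, averaged 11.3 at E13.5 and 7.75 at E11.5 (log2 difference 0.54 ± 0.09, adjusted p = 2.6e-05).

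Among the 3 members of paralog number 5, Hoxb5 had the largest difference between E13.5 and E11.5 of the 33 chosen probe sets. Hoxb5 (chr11:96303512-96306121) is known from the neural crest that forms the nerve cells of the gut. It had intensities between 12 and 15 at E9.5 (median 14), of 11, 11, 15 and 11 at E11.5, and between 52 and 98 at E13.5 (median 78). No E13.5 array came near the earlier stages, which overlapped each other. It was 6.39-fold higher at E13.5 than at E11.5 (log2 difference 2.68 ± 0.14, adjusted p = 2.39e-12) and 5.51-fold higher than at E9.5 (2.46 ± 0.12, adjusted p = 3.62e-13). Hoxb5os, the antisense transcript named for this gene, had its own probe set, which averaged 16.8 at E9.5, 34.8 at E11.5 and 40.8 at E13.5. It was higher at E11.5 than at E9.5 by 1.05 ± 0.19 (adjusted p = 9.15e-05) and differed by 0.24 ± 0.19 between E13.5 and E11.5 (adjusted p = 0.308).

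For Hoxa5, a gene that lung development needs, the 2 probe sets disagreed. The brighter one had intensities between 43 and 101 at E9.5 (median 64.5), of 186, 153, 333 and 198 at E11.5, and between 75 and 118 at E13.5 (median 94). The E11.5 arrays lay above all others. It was 3.13-fold higher at E11.5 than at E9.5 (log2 difference 1.65 ± 0.20, adjusted p = 7.18e-07) and 2.22-fold lower at E13.5 than at E11.5 (-1.15 ± 0.20, adjusted p = 6.62e-05). Without sample 51 the second of these was -0.92. The other probe set lay between 8 and 12 at E9.5 and between 6 and 13 at E11.5, near background, and between 77 and 132 at E13.5, and was higher at E13.5 than at E11.5 by 3.84 ± 0.18 (adjusted p = 1.01e-12). Both were higher at E13.5 than at E9.5, the brighter by 0.50 ± 0.18 (adjusted p = 0.0223) and the other by 3.71 ± 0.16 (adjusted p = 7.33e-14), and for the brighter one no call was made with E9.5 sample 22 or E13.5 sample B62E7K left out (adjusted p = 0.0674 and 0.0584), or with a random block for the E13.5 title prefixes (adjusted p = 0.0937). The brighter set's identifier ends in x_at, which the array's maker gives to sets with probes that can match other transcripts, and no direction between E13.5 and E11.5 is given for the gene.

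Hoxc5 averaged 14.8, 17 and 18.5 in stage order and was higher at E13.5 than at E9.5 by 0.32 ± 0.08 (adjusted p = 0.00140), a call lost with its second-brightest probe set (0.16, adjusted p = 0.109) and with median centring (adjusted p = 0.0555). The dimmest of its 3 probe sets averaged 7.83, 6.75 and 17, and was higher at E13.5 than at E11.5 by 1.33 ± 0.13 (adjusted p = 2.82e-08), where the chosen one differed by 0.12 ± 0.09 (adjusted p = 0.249).

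**Figure D2:**
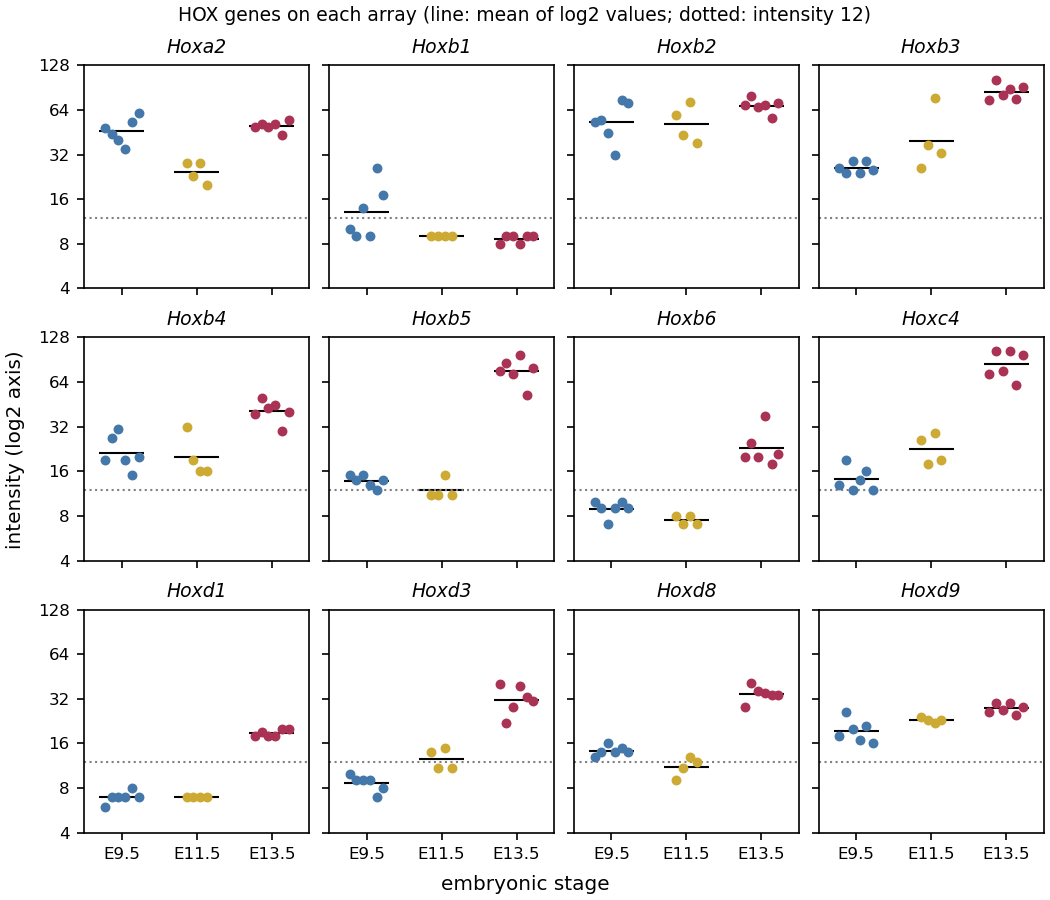
Intensity (log2 axis) of 12 HOX genes on each array by stage (6, 4 and 6 arrays in stage order), with the mean of the log2 values as a line and intensity 12 dotted. Hoxb5, Hoxb6, Hoxc4, Hoxd1, Hoxd3 and Hoxd8 have all E13.5 arrays above all earlier ones, Hoxa2 has its lowest arrays at E11.5, and Hoxb1 exceeds 12 on 3 E9.5 arrays alone.

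Paralog numbers 6 to 8 pattern the neck and trunk. Hoxb6 had intensities between 7 and 10 at E9.5 (median 9), of 8, 7, 8 and 7 at E11.5, and between 18 and 38 at E13.5 (median 20.5). All E13.5 arrays were above the earlier ones, which were near background, and the array at 38 was B63E5K. It was 3.06-fold higher at E13.5 than at E11.5 (log2 difference 1.61 ± 0.16, adjusted p = 2.71e-08). Hoxc6, a gene of the motor neurons that supply the forelimb, averaged 24.7, 30.5 and 23 in stage order and was lower at E13.5 than at E11.5 by -0.39 ± 0.13 (adjusted p = 0.0170), a call lost without E11.5 sample 33 (-0.26, adjusted p = 0.0967), with the prefix block (adjusted p = 0.0651) and with its second-brightest probe set (adjusted p = 0.0818).

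Hoxa7 had intensities between 71 and 99 at E9.5 (median 90.5), of 95, 153, 192 and 142 at E11.5, and between 64 and 79 at E13.5 (median 72.5). The E13.5 arrays were all under the E11.5 arrays, of which sample 33 (95) lay among those of E9.5. It was higher at E11.5 than at E9.5 by 0.72 ± 0.15 (adjusted p = 0.000284) and lower at E13.5 than at E11.5 by -0.96 ± 0.15 (adjusted p = 1.24e-05). The probe set shared by Hoxb8 and Hoxb7 averaged 9.5, 11.5 and 18.8 and was higher at E13.5 than at E11.5 by 0.67 ± 0.18 (adjusted p = 0.00397), while the probe set of Hoxb7 alone was near background and uncalled in each comparison.

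Hoxd8 (chr2:74704615-74707933) had intensities between 13 and 16 at E9.5 (median 14), of 9, 11, 13 and 12 at E11.5, and between 28 and 41 at E13.5 (median 34.5). All E13.5 arrays were above the earlier ones. Its promoter window is among those printed with an AGGTCA match. It was 3.09-fold higher at E13.5 than at E11.5 (log2 difference 1.63 ± 0.11, adjusted p = 9.98e-11), and lower at E11.5 than at E9.5 (-0.36 ± 0.11, adjusted p = 0.00670). Its other probe set went the same ways, by 0.93 ± 0.12 (adjusted p = 1.75e-06) and -0.31 ± 0.12 (adjusted p = 0.0346). The identifier of that set ends in s_at, and whether its probes match other transcripts was not tested.

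**Figure D3:**
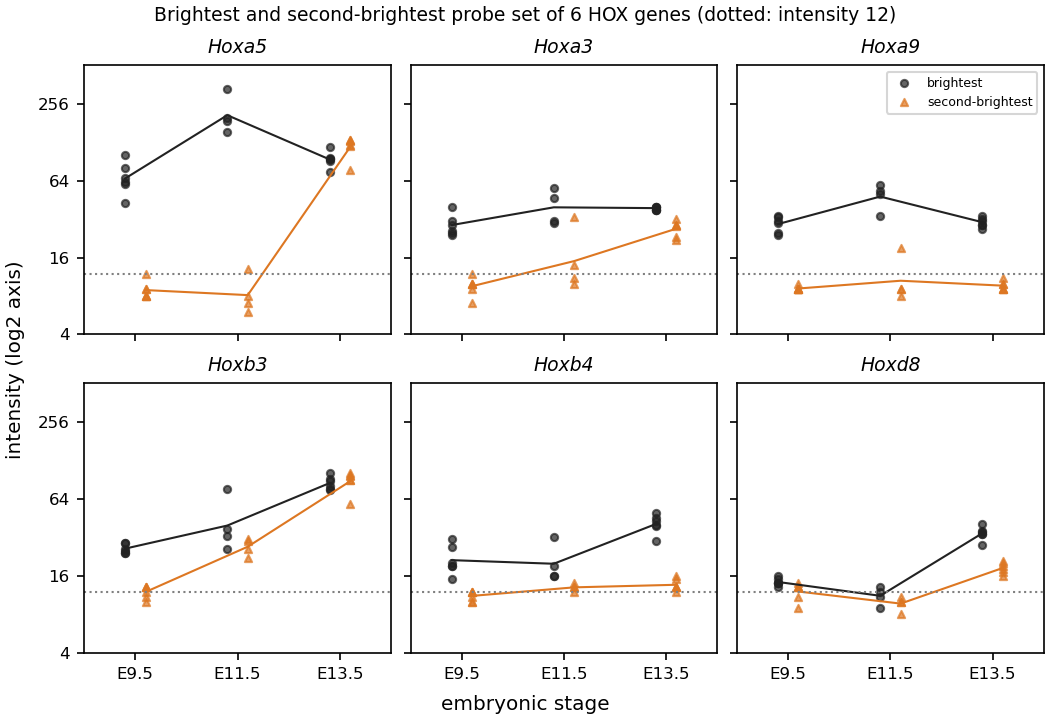
Intensity (log2 axis) of the brightest (black circles) and second-brightest (orange triangles) probe set of 6 HOX genes on each array, by stage, with lines through the means of the log2 values and intensity 12 dotted. Both sets of Hoxb3 and Hoxd8 are highest at E13.5, while those of Hoxa5 take opposite directions between E11.5 and E13.5.

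Of the 14 members of paralog numbers 9 to 13, genes of the trunk, limbs and tail, 4 were near background at all stages. At E11.5 against E9.5, 5 of the 14 were higher and 2 lower (median 0.23, with 31% and 26.9% of all genes called). At E13.5 against E11.5, 2 were higher and 4 lower (median -0.09, with 27.9% and 27% of all genes called), and against E9.5, 3 were higher and 2 lower (median 0.06, with 32.7% and 29.1%). Hoxa9 had intensities between 24 and 34 at E9.5 (median 30.5), of 50, 53, 59 and 34 at E11.5, and between 27 and 34 at E13.5 (median 30). Of the E11.5 arrays only sample 52 lay within the range of the other stages. It was higher at E11.5 than at E9.5 by 0.72 ± 0.13 (adjusted p = 9.71e-05) and lower at E13.5 than at E11.5 by -0.67 ± 0.13 (adjusted p = 0.000223), whereas its other probe set, averaging 9.17, 11.2 and 9.67, differed by 0.20 ± 0.16 and -0.13 ± 0.16 (adjusted p = 0.316 and 0.538).

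Hoxc9, which marks the motor neurons of the chest level, averaged 57.2, 71.8 and 51 in stage order and was lower at E13.5 than at E11.5 by -0.47 ± 0.13 (adjusted p = 0.00532). Its higher level at E11.5 than at E9.5, 0.33 ± 0.13 (adjusted p = 0.0433), lost its call when E9.5 sample 16, 19, 22 or 24, E11.5 sample 33, 36 or 51, or E13.5 sample B62E6K, B62E8K, B63E5K or B63E7K was left out. Hoxd9 averaged 19.7, 23 and 27.7 and was higher at E13.5 than at E9.5 by 0.51 ± 0.10 (adjusted p = 0.000111). Against E11.5 it was higher by 0.26 ± 0.11 (adjusted p = 0.0451), a call lost when any 1 of the E11.5 arrays, E9.5 sample 16 or E13.5 sample B62E7K, B62E8K, B63E5K or B63E7K was left out (highest adjusted p 0.0972), and with the prefix block (adjusted p = 0.155). Hoxb9 averaged 13.8, 11.2 and 14.5, lower at E11.5 than at E9.5 (-0.30 ± 0.10, adjusted p = 0.0120, lost without E11.5 sample 33 or 52) and higher at E13.5 than at E11.5 (0.37 ± 0.10, adjusted p = 0.00286).

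Hoxa11, a gene of the forearm and kidney, was higher at E11.5 than at E9.5 by 0.36 ± 0.09 (adjusted p = 0.00214), with array values of 14 to 17 at E11.5 and 11 to 14 at E9.5. Hoxd12, a gene of the digits, lay between 11 and 15 at E9.5, between 11 and 17 at E11.5 and between 9 and 10 at E13.5. It was lower at E13.5 than at E11.5 by -0.54 ± 0.11 (adjusted p = 0.000355). Hoxb13 was lower at E13.5 than at E11.5 by -0.36 ± 0.12 (adjusted p = 0.0130, 0.0576 with the prefix block) and Hoxa13 lower at E13.5 than at E9.5 by -0.28 ± 0.10 (adjusted p = 0.0190, lost without E9.5 sample 15 and at 0.0837 with the prefix block). Hoxc13 and Hoxd13 were uncalled in each comparison, with array values of 11 to 22 and 11 to 18.

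Between E11.5 and E9.5, 11 members were higher at E11.5 and 5 lower (31% and 26.9% of all genes), and 1 was higher 2-fold, Hoxa5 by its brighter probe set, and 0 lower 2-fold (6.08% and 4.79% of all genes). The members lower at E11.5 were Hoxa2, Hoxb1, Hoxb9, Hoxd8 and Hoxd11, and the count ranged between 2 and 6 when 1 array was left out, falling to 2 without E11.5 sample 33 or 52 and to 3 without E9.5 sample 24. In the Hoxa cluster, 6 of 9 members were higher and 1 lower. By a moderated F test over the 3 stages, 25 of the 33 members differed, where 75.8% of all genes did.

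Within a stage some arrays were high or low for many HOX genes, which was not compared with all genes on the same arrays. Of the 21 members with an E11.5 mean of 12 or more, sample 51 was highest for 12, with a median log2 deviation from the stage mean of 0.25, and sample 52 was lowest for 8, with a median deviation of -0.20. At E13.5, B62E7K was highest for 8 of 23 members with a median deviation of 0.12, and B63E6K and B62E6K were lowest for 10 and 7, each with a median of -0.06. At E9.5, sample 15 was highest for 9 of 22. Without E11.5 sample 51 no member was lower 2-fold at E13.5 than at E11.5, and without sample 33 there were 2. With the E13.5 arrays whose titles open with B62 alone, 9 members were higher 2-fold at E13.5 than at E11.5, and with those opening with B63 alone, 8 were.

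**Figure D4:**
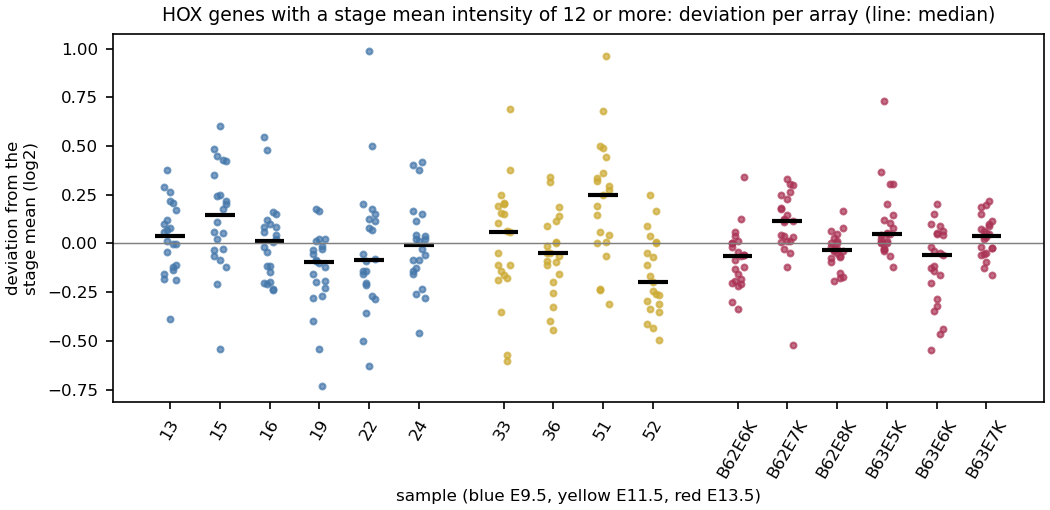
Deviation of each HOX gene from its stage mean (log2) on each of the 16 arrays, for members with a stage mean of 12 or more (22 at E9.5, 21 at E11.5, 23 at E13.5), with the median as a line. The points of E11.5 sample 51 lie mostly above 0 and those of sample 52 mostly below.

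Lists of genes used as markers of other tissues were read as summed intensities beside these results, and their part in them was not tested. Each list is named for a tissue, but its genes can also be active in tissues of the head. A sum therefore does not show that the named tissue was in the samples. For the counts below, 31% of all genes were called higher and 26.9% lower at E11.5 against E9.5. The shares were 27.9% and 27% at E13.5 against E11.5, and 32.7% and 29.1% at E13.5 against E9.5. The 7 somite markers measured summed to 162 to 223 at E9.5, 408 to 501 at E11.5 and 507 to 561 at E13.5, and all 7 were called higher at E13.5 than at E9.5, while against E11.5 3 were higher and 1 lower. The 6 limb bud markers summed to 184 to 226, 167 to 208 and 296 to 320, with Tbx4 near background at each stage. Between E13.5 and E11.5 2 of the 6, Pitx1 and Hand2, were higher and 4 were not called. The 10 heart markers summed to 164 to 195, 160 to 197 and 262 to 315, with Myh6, Nppa and Myl2 near background at each stage. Between E13.5 and E9.5 2 of the 10 were higher, 1 was lower and 7 were not called, and Tnnt2 and Myh7, with E13.5 means of 83.2 and 66.5, made up much of the sum. The 7 motor neuron markers summed to 336 to 480, 973 to 1236 and 802 to 910, with Mnx1 and Slc18a3 near background, and Isl1 made up most of the sum (means of 253, 930 and 711 in stage order). Of the 7, 2 were higher and 5 not called at E11.5 against E9.5, and 1 was higher and 1 lower at E13.5 against E9.5. The 6 tail bud markers summed to 164 to 219, 146 to 167 and 126 to 148, with Cdx4 near background. Between E13.5 and E9.5 1 of the 6, Wnt3a, was lower (means of 107.7, 75.8 and 49.3 in stage order), 1, Cdx2, was higher and 4 were not called.

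The 7 hindbrain markers measured summed to 164 to 203 at E9.5, 211 to 221 at E11.5 and 174 to 184 at E13.5, which overlapped between E9.5 and E13.5. Of the 7, 1 was higher and 1 lower at E13.5 than at E11.5 (27.9% and 27% of all genes). The sum hides opposite moves of these 2, with means in stage order of 33.2, 19.5 and 55.7 for Gbx2 and of 50.2, 102 and 24.8 for Atoh1. At E13.5 against E9.5, 2 of the 7 were higher, 3 lower and 2 not called (32.7% and 29.1% of all genes). The 10 forebrain and midbrain markers had sums of 2074 to 2936, 2105 to 2321 and 2081 to 2223, with En1 close to 12 at E11.5 and E13.5 (means of 12.25 and 14.3). At E13.5 against E9.5, 5 of the 10 were higher, 4 lower and 1 not called (32.7% and 29.1% of all genes). Among them, Dlx1 rose (means of 78.2, 154 and 397.5 in stage order) and En2 fell (516.5, 289 and 93.8). Sums for cranial neural crest markers (8 genes) were 1121 to 1275, 1512 to 1733 and 1911 to 2240, for foregut endoderm markers (6 genes) 830 to 991, 642 to 693 and 593 to 640, and for blood markers (8 genes) 26037 to 30626, 27535 to 38566 and 13839 to 17084. At E13.5 against E9.5, 3 crest markers were higher, 1 lower and 4 not called, with 32.7% and 29.1% of all genes called. Prrx1 (means of 344, 573 and 1006) and Dlx5 (87.5, 175 and 313) made up much of the rise in the crest sum. Of the foregut markers 1 was higher and 4 lower, and of the blood markers 1 was higher and 4 lower. The globins Hba-x, Hbb-y and Hbb-bh1 made up most of the blood sum.

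HOX proteins bind DNA with partners of the PBX, MEIS and PKNOX families. Of 8 such genes measured, 1 was higher and 5 were lower at E13.5 than at E11.5, and 2 higher and 3 lower than at E9.5. The shares over all genes were 27.9% and 27% in the E11.5 comparison, and 32.7% and 29.1% in that with E9.5. Meis2 rose at E13.5 against E11.5 by 0.94 ± 0.08 (adjusted p = 8.66e-09), while Pknox2 fell by 0.93 ± 0.09 (adjusted p = 1.6e-08). Pknox1 was higher and Pknox2 lower at E11.5 than at E9.5, by 0.39 ± 0.10 and -0.48 ± 0.09 (adjusted p = 0.00351 and 7.25e-05).

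Retinoic acid, made by Aldh1a2 and broken down by the Cyp26 enzymes, switches on HOX genes of low paralog number, with Cdx factors acting further back. Of 12 upstream regulators measured, 5 were higher and 4 lower at E13.5 than at E11.5, 6 higher and 2 lower at E13.5 than at E9.5, and 5 higher and 2 lower at E11.5 than at E9.5. The shares of all genes were 27.9% and 27%, 32.7% and 29.1%, and 31% and 26.9% in the same order. Aldh1a2 was higher at E13.5 than at E9.5 by 2.05 ± 0.16 (adjusted p = 4.78e-10), as was Cyp26b1 by 1.61 ± 0.14 (adjusted p = 1.4e-09) and the retinoic acid receptor Rarg by 1.14 ± 0.08 (adjusted p = 1.61e-10). The 2 lower in that comparison were Cyp26a1, by -0.96 ± 0.13 (adjusted p = 1.54e-06), and the receptor Rara, by -0.60 ± 0.17 (adjusted p = 0.00423). Against E11.5, Cyp26a1 was lower at E13.5 by -1.21 ± 0.14 (adjusted p = 5.19e-07), and Gbx2, a gene of the front hindbrain, was higher by 1.58 ± 0.17 (adjusted p = 1.71e-07). Cdx2 was higher at E13.5 than at E11.5 by 0.75 ± 0.14 (adjusted p = 9.66e-05), with Cdx4 near background.

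Trithorax proteins keep HOX genes on and Polycomb proteins keep them off. Of 18 such chromatin regulators measured, 3 were higher and 10 lower at E13.5 than at E11.5, and 5 higher and 9 lower than at E9.5, where 27.9% and 27%, and 32.7% and 29.1%, of all genes were. The trithorax methyltransferase Kmt2a was higher at E13.5 than at E11.5 by 1.50 ± 0.10 (adjusted p = 6.89e-11), while Kmt2d, another methyltransferase of this kind, was lower by -1.03 ± 0.11 (adjusted p = 5.8e-08). Men1, a partner of Kmt2a, was lower in the same comparison by -0.52 (adjusted p = 1.61e-05). The Polycomb protein Bmi1 was lower by -0.90 ± 0.08 (adjusted p = 6.65e-09). The Polycomb protein Cbx2 was lower at E13.5 than at E9.5 by -1.13 ± 0.06 (adjusted p = 3.32e-12), and Eed lower at E11.5 than at E9.5 by -0.78 ± 0.09 (adjusted p = 4.45e-07). At E11.5 against E9.5, however, 7 of the 18 were higher and 5 lower, where 31% and 26.9% of all genes were. Among the 7 higher were Kmt2d, by 1.48 ± 0.11 (adjusted p = 3.31e-10), and the Polycomb genes Rnf2, Bmi1 and Suz12, by 0.41, 0.25 and 0.25.

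Among the 8 ParaHox and Evx genes, the nearest relatives of the HOX family, 4 had higher values at E11.5 than at E9.5 and 1 had lower (31% and 26.9% of all genes). Gsx1 and Gsx2, which act in the developing brain, were higher at E11.5 by 1.36 ± 0.10 and 1.18 ± 0.14 (adjusted p = 6.38e-10 and 3.77e-07). Of 14 genes beside the clusters, 3 were higher and 5 lower at E13.5 than at E11.5 (27.9% and 27% of all genes). Mtx2 and Lnpk, which flank the Hoxd cluster on opposite sides, went apart at E13.5 against E11.5, by 0.96 ± 0.07 and -1.51 ± 0.09 (adjusted p = 7.06e-10 and 1.21e-11).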

How the data were processed

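Probe set intensity was deposited on a linear scale. RMA, named in the submitters' processing notes with no version, corrects background, normalizes arrays and summarises probes. The table holds whole numbers, which are coarse at the dim end (lowest values 4 to 5, lowest array median 32). They are relative measures within an array. For arrays the number of samples limits the precision.

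Of 45101 probe sets, 64 controls, 932 naming several genes and 9160 unnamed here were left out of the gene table. The 34945 others gave 18193 genes. A linear model of log2 values with a mean per stage over the 16 arrays was fitted in limma 3.58.1 (R 4.3.3), with moderated tests by eBayes, and tested on simulated data. Adjustment was over all genes. Sets naming several genes were fitted over all 45037 non-control probe sets, as was each further probe set of a member.

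The members, gene lists and rules were chosen with earlier results of these data known. Members reaching 12 were named with values, and array values were given for the 6 called members with the largest difference in each comparison. Up to 3 called genes per pathway list were eligible, and the ones named from them were chosen after their values were seen. A few further genes of these lists were added in the same way. Alternatives covered probe set choice, scaling, dim genes, the fit, arrays left out, and a random block for the E13.5 title prefixes (B62, B63), whose meaning the labels do not give. The fits of each prefix alone were added after the data were seen.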

Additional observations from a re-analysis of the deposited data

Results flagged for a closer look

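In 78 groups of HOX values, 1 per stage for each of the 26 members that reached 12, 3 held an array that stood apart from the rest of its stage by Dixon's criterion, which chance meets in about 1 in 20 groups. Hoxb5 was 15 on E11.5 sample 51 and 11 on the other E11.5 arrays. Hoxd13 was 16 on the same sample and 14 on the others. Hoxb6 was 7 on E9.5 sample 16, with the nearest array at 9. All 3 gaps are of few whole-number steps near the dim end of the scale.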

How the results depend on the processing

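The rises at E13.5 of Hoxb3, Hoxb5, Hoxb6, Hoxc4, Hoxd1, Hoxd3 and Hoxd8 kept their direction and their call under each alternative that could be run for them, and values under 12 limit how large a rise can be read. Hoxb5, Hoxb6, Hoxc4, Hoxd1 and Hoxd3 have only 1 probe set each. The alternatives of probe set choice used the same values for them and could not change their direction. The counts depended more on the setting, and unless stated the cause was not tested. The brightest 75% of genes leave fewer members to test by construction, and there 7 members (12 in the main count) were higher at E13.5 than at E11.5, 8 (15) were higher and 0 (3) lower at E13.5 than at E9.5, 2 (5) lower at E11.5 than at E9.5, 4 (7) higher 2-fold at E13.5 than at E9.5, and 13 (25) differed in the F test. With log2(value + 16), which shrinks differences of dim genes by construction, 2 (9) were higher 2-fold at E13.5 than at E11.5, 3 (7) at E13.5 than at E9.5, and 3 (5) were lower at E11.5 than at E9.5. That last count was 3 in the fit of only both stages and with the B62 or B63 arrays alone at E13.5, and 2 to 6 with 1 array left out. The count lower at E13.5 than at E11.5 was 4 (7) with the second-brightest probe sets and with B62 alone. The count lower 2-fold there was 0 (1) with the second-brightest, the mean or the most variable probe set, 2 with quantile normalization or median centring, and 0 to 2 with 1 array left out. The count lower at E13.5 than at E9.5 (3) was 5 with quantile normalization, 6 with median centring, 5 in the fit of both stages and 1 with B63 alone. Median centring moved the median of all genes in that comparison to -0.14, against 0.0068. Between E11.5 and E9.5, 1 member was lower 2-fold (0) with quantile normalization and 0 were higher 2-fold (1) with the mean of all probe sets. A limit of 16 or 32 in place of 12 marked 12 or 20 members (7) as dim. Reversals came from probe set choice alone. Hoxa5 differed between E13.5 and E11.5 by 3.84 with its other or most variable probe set and 1.35 with the mean (main -1.15), and between E11.5 and E9.5 by -0.13 with its other or most variable set (main 1.65). Hoxa3 differed between E13.5 and E11.5 by 0.84 with the second-brightest or most variable set and 0.28 with the mean (main -0.02). Over 78 differences of the 26 brighter members, the prefix block (consensus correlation 0.601) took the call of 6 (Hoxa5, Hoxa11 and Hoxa13 for E13.5 versus E9.5, Hoxb13, Hoxc6 and Hoxd9 for E13.5 versus E11.5), B62 alone of 9 and B63 alone of 7. No paired analysis was possible because the sample numbers in the titles are not shared between stages.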

Other observations

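Hoxd3os1, an antisense transcript named for Hoxd3, had 2 probe sets. The brighter averaged 7.5 at E9.5, 10.75 at E11.5 and 17.5 at E13.5, and it was higher at E13.5 than at E11.5 by 0.75 ± 0.19 (limma adjusted p = 0.00198). The other averaged 7.33, 8.5 and 8.17, near background, with a difference of -0.06 ± 0.09 (adjusted p = 0.627). Both probe sets of Hoxa11os lay between 6 and 10 on all arrays. Among the 9 members higher 2-fold at E13.5 than at E11.5, B63E6K was the lowest E13.5 array for 5 and B62E7K the highest for 4, with median log2 deviations of -0.20 and 0.18.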
